A study of Mus musculus with 42 samples.

Results

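The 8 genes described here are cell surface receptors of the semaphorin system, namely the plexins Plxnb1, Plxnb2, Plxna1, Plxna2, Plxna3 and Plxnd1 and the neuropilins Nrp1 and Nrp2. They were taken by gene symbol from both deposited count tables. Plxnb2 was included as a reported target of the RNA-binding protein Trim71 and the other 7 as its relatives. They are 8 of 18825 genes in the table of experiment 1 and 8 of 19866 in that of experiment 2. All 8 passed the filter on low counts, which left 18772 and 19778 genes to be tested. The libraries measure RNA that co-purified with Tnrc6a, a GW182 protein, in mouse embryonic stem cells, and the study asked how distinct RNA-silencing pathways meet on that protein.

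RNA bound to anti-HA beads (IP) and RNA of the matching lysate (input) were sequenced in 14 groups of 3 libraries. All cells derive from the 129S6/SvEvTac background and, per the labels, share a yGlob [GFP_5xT71BS] reporter and stably expressed FLAG-Cas9::T2A::Blasticidin. Untagged cells carried nothing else, so their IP measures RNA that sticks to the beads without the tag. Tagged cells carried HA-AVI-Tnrc6a. Trim71KO cells were HA-AVI-Tnrc6a and Trim71-/-, and Ago2KO cells were HA-AVI-Tnrc6a and Ago2-/-. Experiment 1 held untagged, tagged and Trim71KO cells in 18 libraries, and experiment 2 held the same genotypes and Ago2KO cells in 24 libraries. The labels do not say whether a knockout genotype stands for 1 clone or several, so clone and genotype cannot be told apart. Replicates were dishes grown in triplicate, so each p-value here measures the spread between such dishes.

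Plexins are single-pass receptors for semaphorins, secreted or membrane-bound guidance cues that steer axons, blood vessels and epithelial cells. Their cytoplasmic part inactivates small GTPases of the Ras and Rap family, and class B plexins also signal through the exchange factors Arhgef11 and Arhgef12. Neuropilins have only a short cytoplasmic tail and act as co-receptors, pairing with class A plexins for class 3 semaphorins and with VEGF receptors for VEGF. GW182 proteins link Argonaute, guided by microRNAs, to the machinery that silences mRNAs, and Trim71 represses mRNAs that it binds in stem cells.

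Libraries of experiment 1 held between 12587257 and 23657840 counts, and those of experiment 2 between 16296447 and 21026552. No molecular identifiers are stated, so this depth sets the counting precision only. The 8 embryonic stem cell markers summed to between 6300 and 8780 CPM, counts scaled to library size, in every input library. Ago2 RNA fell in Ago2KO input, from 353 ± 34.9 to 162 ± 4.76 CPM (SD, n = 3). Trim71 RNA was higher, not lower, in the libraries labelled Trim71KO, at 281.8 ± 3.16 CPM against 240.6 ± 21.2 CPM for tagged input in experiment 1 and at 377.1 ± 9.61 against 282.3 ± 23.5 CPM in experiment 2. Trim71 RNA therefore does not check that label, and every direction given below for Trim71KO rests on the label alone. Input RNA comes from whole dishes, in which fewer cells of a type and less RNA per cell cannot be told apart.

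Plxnb2 and Plxna1 were the most abundant receptors of the set in untagged input, and Nrp1 was close to absent. Levels of different genes were compared per length, as RPKM computed from the deposited counts and gene lengths with the same library scaling as the CPM. Plxnb2, a class B receptor, stood at 7.56 ± 0.391 RPKM in experiment 1 and 8.77 ± 0.639 RPKM in experiment 2 (SD, n = 3 for each). Plxna1, a class A receptor that pairs with neuropilins, followed at 6.33 ± 0.329 and 6.24 ± 0.513 RPKM. Plxnb1, the other class B receptor of the set, stood at 2.405 ± 0.0868 and 2.2 ± 0.157 RPKM, and Plxna3, a class A receptor, at 1.65 ± 0.301 and 1.41 ± 0.127 RPKM. Nrp2, at 0.540 ± 0.0278 and 1.28 ± 0.196 RPKM, came next, and in experiment 2 its libraries overlapped those of Plxna3. Plxnd1, a plexin best known from blood vessels, stood at 0.389 ± 0.0552 and 0.673 ± 0.0499 RPKM. Plxna2 stood at 0.361 ± 0.0375 and 0.419 ± 0.0307 RPKM, which overlapped Plxnd1 in experiment 1. Nrp1 stood at 0.0322 ± 0.0265 and 0.0475 ± 0.0179 RPKM. The order of the 8 means was the same in both experiments, and the neighbours in that order that did not separate were those named as overlapping.

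In RefSeq's GRCm38.p6 annotation Plxnb1 lies on chr9:109093849-109119915, Plxnb2 on chr15:89155546-89182018, Plxna1 on chr6:89316313-89362613 and Plxna2 on chr1:194619791-194816869. Plxna3 lies on chrX:74328290-74344689, Plxnd1 on chr6:115954811-115995339, Nrp1 on chr8:128358591-128505476 and Nrp2 on chr1:62703317-62818692. Only Plxnd1 overlaps no other annotated gene. The others share bases with 1 or 2 Gm or Rik gene models or a microRNA gene, such as Mir7118 inside Plxnb2, and whether reads of these were kept apart by strand is not stated.

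Plxnb2 and Plxna1 RNA were enriched in the IP of tagged Tnrc6a in both experiments, and Nrp2 RNA to a smaller extent. The quantity tested was tag-specific enrichment, the log2 IP-to-input ratio of tagged cells minus that of untagged cells. In experiment 1 the 3 untagged input libraries held Plxna1 at 59.57, 53.94 and 58.44 CPM and the untagged IP libraries at 43.2, 47.55 and 39.43 CPM. In tagged cells the input libraries held 54.15, 28.56 and 41.66 CPM and the IP libraries 212.7, 213.7 and 227.8 CPM. Every tagged IP library thus lay above every other library of that pair of genotypes, and tagged input replicate 2 was the lowest. Tag-specific enrichment of Plxna1 was 2.80 on the log2 scale (SE 0.22, edgeR quasi-likelihood adjusted p = 1.59e-10). In experiment 2 the Plxna1 input libraries held 59.75, 58.6 and 51.19 CPM in untagged and 53.93, 45.25 and 55.79 CPM in tagged cells. The matching IP libraries held 54.64, 50.1 and 40.9 CPM and 126.7, 109.6 and 113.8 CPM. The groups again did not overlap, and the enrichment was 1.39 (SE 0.15, edgeR adjusted p = 2.11e-08).

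Plxnb2 was enriched in tagged cells as well. In experiment 1 it stood at 56.39, 56.85 and 61.84 CPM in untagged input and at 42.46, 50.37 and 45.47 CPM in untagged IP. Tagged input held 50.71, 37.16 and 46.77 CPM and tagged IP 188.3, 167.4 and 165.5 CPM. No untagged library came near the tagged IP values, and the enrichment was 2.29 (SE 0.18, edgeR adjusted p = 7.69e-11). In experiment 2 untagged input held 69.7, 71.37 and 62.12 CPM, untagged IP 72.41, 61.16 and 57.72 CPM, tagged input 64.93, 58.7 and 66.96 CPM and tagged IP 122.5, 107.1 and 115.1 CPM. The tagged IP libraries were the highest here too, with an enrichment of 0.94 (SE 0.17, edgeR adjusted p = 8.9e-05). By IP-to-input ratio in tagged cells, Plxna1 lay at the 93.9th and 91.7th percentile of all genes in experiments 1 and 2, and Plxnb2 at the 90.9th and 87.6th.

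Nrp2 was enriched more weakly. In experiment 1 its tagged IP libraries held 14.01, 14.45 and 14.86 CPM against 9.415, 7.512 and 8.43 CPM in tagged input, while untagged IP held 4.364, 6.763 and 7.108 CPM against 6.767, 6.286 and 6.137 CPM. In experiment 2 tagged IP held 29.98, 28.72 and 27.49 CPM against 22.3, 21.35 and 20.32 CPM in input, and untagged IP 12.52, 13.94 and 12.38 CPM against 14.87, 17.67 and 13.07 CPM. The IP-to-input differences of tagged and untagged cells did not overlap in either experiment. Tag-specific enrichment of Nrp2 was 0.84 (SE 0.22, edgeR adjusted p = 0.00191) and 0.66 (SE 0.15, edgeR adjusted p = 0.00144). Judging overlap by these differences uses 9 pairings that share 3 IP and 3 input libraries.

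Altogether 3 of the 8 receptors were called higher in tagged IP in each experiment, the same 3 genes, where called means an edgeR adjusted p under 0.05 over all genes tested. Of all genes, 28.1% were called higher in experiment 1 and 18.9% in experiment 2. The median enrichment over the 8 was 0.09 in experiment 1 and 0.25 in experiment 2, beside -0.10 and -0.03 over all genes. Plxna3 was called lower in experiment 1, at -0.82 (SE 0.29, edgeR adjusted p = 0.0185), among 28.8% of all genes. Its IP libraries did not overlap, at 12.13, 19.72 and 14.48 CPM in untagged and 10.13, 6.456 and 6.89 CPM in tagged cells, but its IP-to-input differences did. The call was lost in 6 of 12 fits that each left out 1 library. These left out untagged input replicate 3, untagged IP replicate 2, tagged input replicate 1 or 3, or tagged IP replicate 2 or 3, and gave -0.74 to -0.56. In experiment 2 Plxna3 was at -0.31 (SE 0.21), not called. It was called lower there in 1 of 12 such fits, without untagged IP replicate 3 (-0.55, edgeR adjusted p = 0.0156). Plxnb1, Plxna2 and Plxnd1 were not called in either experiment, at 0.16, -0.04 and 0.01 in experiment 1 and -0.20, -0.16 and 0.55 in experiment 2.

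**Figure D1:**
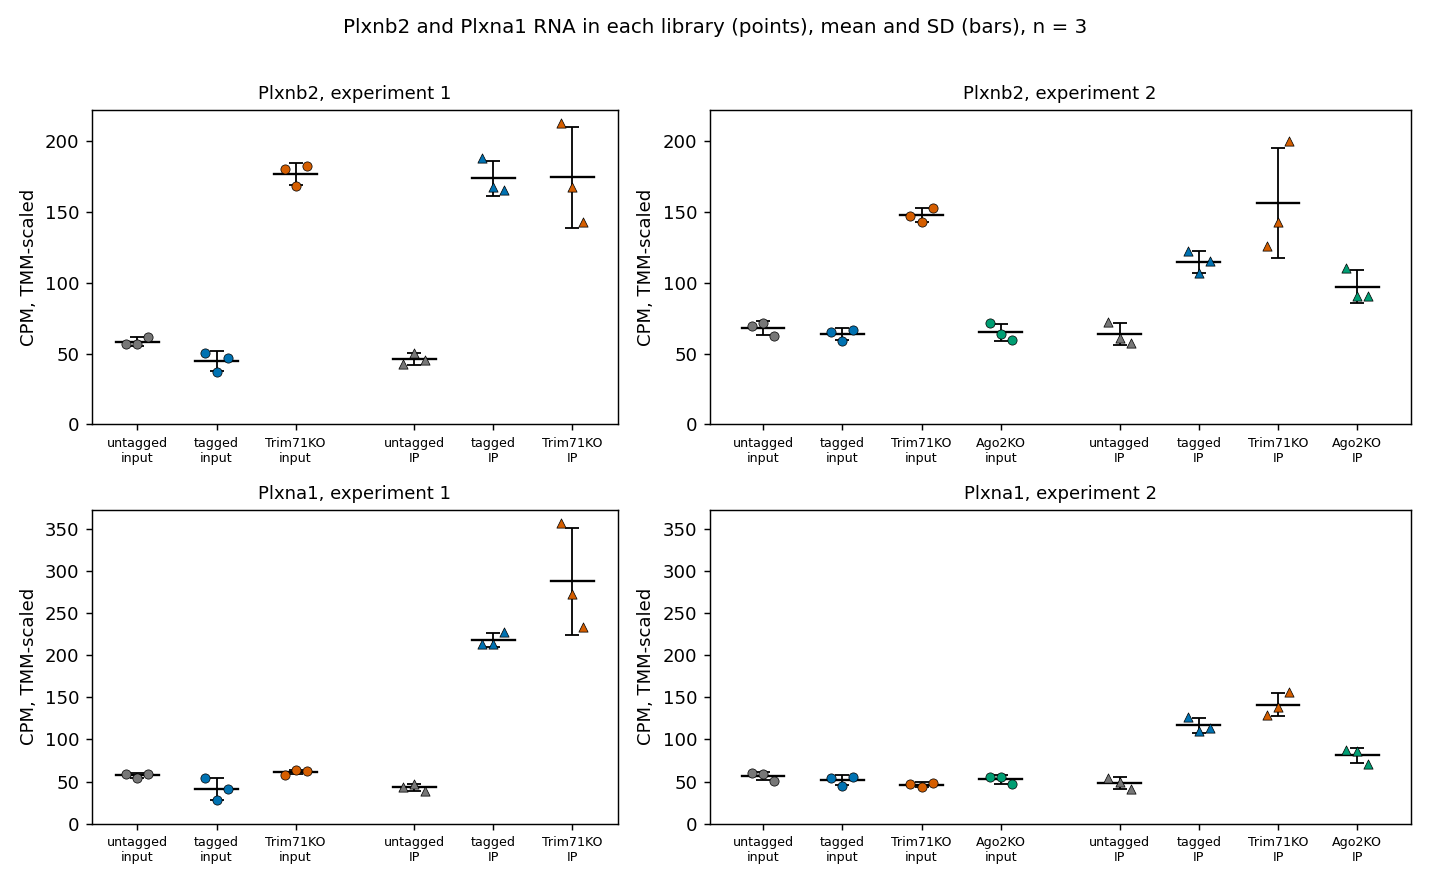
CPM of Plxnb2 and Plxna1 in every library of both experiments, by genotype and by fraction (input or IP), with points for libraries and bars for the mean and SD of 3. Tagged IP libraries stand above tagged input for both genes, while Trim71KO input is raised for Plxnb2, to between 143 and 182.3 CPM, and is at 43.73 to 63.25 CPM for Plxna1.

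In the libraries labelled Trim71KO, input RNA of both class B plexins of the set was higher than in tagged cells in both experiments. Plxnb2 showed the larger difference. Plxnb2 input held 180.5, 168.3 and 182.3 CPM in Trim71KO cells of experiment 1, against 50.71, 37.16 and 46.77 CPM in tagged cells. In experiment 2 it held 147.1, 143 and 153 CPM against 64.93, 58.7 and 66.96 CPM. Every Trim71KO input library was above every tagged and untagged one. The log2 difference was 1.98 (SE 0.13, edgeR adjusted p = 9.1e-11) and 1.22 (SE 0.12, edgeR adjusted p = 1.93e-08). Per length, Plxnb2 reached 22.93 ± 0.981 and 19.14 ± 0.650 RPKM (SD, n = 3). Plxnb1, which like Plxnb2 binds class 4 semaphorins, stood at 25.88, 25.85 and 23.55 CPM in Trim71KO and 20.18, 14.11 and 19.7 CPM in tagged input of experiment 1. In experiment 2 it stood at 26.15, 26.32 and 24.29 CPM against 22.2, 21.56 and 21.48 CPM. Untagged input of experiment 1 held 22.11, 23.44 and 23.65 CPM, which overlapped Trim71KO input. In experiment 2 it held 22.86, 20.12 and 20.41 CPM, which did not. Trim71KO and tagged input did not overlap, and the differences between them were 0.48 (SE 0.12, edgeR adjusted p = 0.00361) and 0.23 (SE 0.09, edgeR adjusted p = 0.0419). The second call was lost without any 1 of the tagged input libraries or Trim71KO input replicate 1 or 2 (0.21 to 0.25), and with library size alone as the scaling (0.17, edgeR adjusted p = 0.205).

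The promoters of these 2 genes are shown because they are the 2 members whose input RNA was called higher in Trim71KO in both experiments. Each window spans 250 bases before to 50 bases after a RefSeq transcript start of assembly GRCm38.p6 and is read 5′ to 3′ on the gene's strand. The Plxnb1 window is chr9:109095186-109095485 on the plus strand. The Plxnb2 window, at the start nearer the gene's 5′ end, is chr15:89180739-89181038 on the minus strand. Capitals mark GC boxes, the letters GGGCGG or, on the other strand, CCGCCC.
Plxnb1: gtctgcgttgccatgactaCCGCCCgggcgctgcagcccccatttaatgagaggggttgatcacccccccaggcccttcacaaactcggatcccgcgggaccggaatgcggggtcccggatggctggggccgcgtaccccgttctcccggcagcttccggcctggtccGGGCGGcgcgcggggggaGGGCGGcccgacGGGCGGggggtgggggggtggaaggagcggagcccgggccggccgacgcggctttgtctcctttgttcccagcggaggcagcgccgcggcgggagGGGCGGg
Plxnb2: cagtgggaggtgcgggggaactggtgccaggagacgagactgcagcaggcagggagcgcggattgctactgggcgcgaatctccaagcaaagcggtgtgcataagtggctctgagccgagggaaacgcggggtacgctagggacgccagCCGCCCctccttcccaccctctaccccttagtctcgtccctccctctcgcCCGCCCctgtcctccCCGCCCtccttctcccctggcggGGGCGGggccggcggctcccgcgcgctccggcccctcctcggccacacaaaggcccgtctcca
The Plxnb1 window holds 5 GC boxes and 36 CpG dinucleotides at 74.7% GC, and the Plxnb2 window 4 GC boxes and 27 CpG at 70.3% GC. At least 4 GC boxes were found in 1802 of 32851 windows of the same length (5.49%), and at least 1 in 35.7%. By CpG number the 2 printed windows lie at the 94.4th and 85.8th percentile, and the median over all windows is 7. A second Plxnb2 window, chr15:89173902-89174201 on the minus strand and not printed, holds 3 GC boxes and 15 CpG at 61.7% GC, and its CpG number is at percentile 67.0. None of the 3 windows holds the letters CCAAT (37.4% of all windows, either strand) or TATAAA (13.6%). Windows were found for 7 of the 8 receptors, and each window held at least 1 GC box and neither CCAAT nor TATAAA. The Nrp2 window held 5 GC boxes and 37 CpG, at percentile 95.0, so these features were not particular to the 2 printed genes.

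Plxna1 and Plxna2 were called higher in Trim71KO input in experiment 1 only. Plxna1 stood at 58.09, 63.25 and 61.98 CPM there, which overlapped untagged input at 59.57, 53.94 and 58.44 CPM. Tagged input held 54.15, 28.56 and 41.66 CPM and did not overlap Trim71KO input. The difference of Trim71KO from tagged input was 0.56 (SE 0.16, edgeR adjusted p = 0.00792). Without tagged input replicate 2 it was 0.36 and was not called (edgeR adjusted p = 0.0667). In experiment 2 Trim71KO input held 47.53, 43.73 and 48.38 CPM of Plxna1 and overlapped tagged input. Over the set, 4 of 8 were called higher in experiment 1 (Plxnb1, Plxnb2, Plxna1 and Plxna2), where 16.5% of all genes were. In experiment 2 Plxnb1, Plxnb2 and Nrp2 were called higher, where 13.5% of all genes were, and Plxnd1 was called lower, where 13.7% were. The median difference of the 8 was 0.50 and 0.04, beside -0.01 and -0.01 over all genes.

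Tagged and untagged input were compared in the same way as a background. In experiment 1 none of the 8 was called, where 10.6% of all genes were called in either direction. At an unadjusted p under 0.05, edgeR gave 6 of the 8. DESeq2 called 1, Nrp2, which was higher in tagged input (0.43, DESeq2 adjusted p = 0.0409). Nrp2 held 9.415, 7.512 and 8.43 CPM in tagged and 6.767, 6.286 and 6.137 CPM in untagged input, with no overlap. Plxnd1 was lowest at -0.76 (edgeR adjusted p = 0.0843), and the smallest adjusted p from edgeR were those of Plxnb2 (-0.38, 0.0505), Plxna1 (-0.47, 0.0554) and Plxnb1 (-0.36, 0.0564). Within the tagged input group, replicate 2 was the lowest library for Plxnb1, Plxnb2, Plxna1, Plxna2, Plxna3 and Nrp2, and replicate 1 for Plxnd1 and Nrp1. Replicate 2 was also the lowest for Tnrc6a, Trim71 and Ago2. Without tagged input replicate 1, Plxna1, Plxnb2 and Plxnb1 were called lower, at -0.68, -0.44 and -0.41. In experiment 2 only Nrp2 was called, at 0.49 (SE 0.11, edgeR adjusted p = 0.0127), where 0.809% of all genes were called higher, and that call was lost without untagged input replicate 1 or 3 or tagged input replicate 1 (0.39 to 0.49).

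Plxnb2 was the only one of the 8 whose enrichment in the Tnrc6a IP was called lower in Trim71KO than in tagged cells, in both experiments. Its IP libraries held 213.2, 167.6 and 142.8 CPM in Trim71KO cells of experiment 1 and 126.1, 142.8 and 200.4 CPM in experiment 2. The tagged IP libraries held 188.3, 167.4 and 165.5 CPM and 122.5, 107.1 and 115.1 CPM. In experiment 1 Trim71KO and tagged IP overlapped, at a log2 difference of 0.01 (SE 0.12, not called), while input had risen. In experiment 2 the IP difference was 0.45 (SE 0.12, edgeR adjusted p = 0.00447) and 0.22, not called, without Trim71KO IP replicate 3, the highest library. The ratio of IP to input for Plxnb2 in experiment 1 was 0.790 for untagged, 3.87 for tagged and 0.985 for Trim71KO cells, and in experiment 2 it was 0.941, 1.81 and 1.06. Among all genes of Trim71KO cells these ratios of Plxnb2 lay at percentiles 55.1 and 57.8.

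The test of that change, Trim71-dependent enrichment, gave -1.97 for Plxnb2 in experiment 1 (SE 0.17, edgeR adjusted p = 4.93e-08), and leaving out each library gave -2.08 to -1.76. In experiment 2 it gave -0.77 (SE 0.17, edgeR adjusted p = 0.0173), and leaving out each library gave -1.03 to -0.68. Without Trim71KO IP replicate 2 it was -0.73 and not called (edgeR adjusted p = 0.0614). The IP-to-input differences of tagged and Trim71KO cells did not overlap in either experiment. Of all genes, 3.47% were called lower in experiment 1 and 0.738% in experiment 2, and of the 8 receptors 1 was called in each. The median over the 8 was -0.22 and 0.24, beside -0.04 and 0.01 over all genes. Set against untagged cells, enrichment of Plxnb2 in Trim71KO was 0.32 (SE 0.17, edgeR adjusted p = 0.121) in experiment 1 and 0.17 (SE 0.17, edgeR adjusted p = 0.459) in experiment 2. The first of these was called with library size alone (0.46, edgeR adjusted p = 0.0291) and in a fit of only the groups compared (0.42, edgeR adjusted p = 0.034), and in 5 of 12 fits that left out 1 library (0.47 to 0.58), so this call depends on these settings.

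Plxna1, which shared the tag-specific enrichment, was enriched over untagged cells also in the libraries labelled Trim71KO. Its Trim71KO IP libraries held 356, 272.9 and 232.7 CPM in experiment 1 and 128.9, 138.7 and 156.5 CPM in experiment 2, all above the tagged IP libraries of the same experiment. The ratio of IP to input for Plxna1 in experiment 1 was 0.757 for untagged, 5.26 for tagged and 4.70 for Trim71KO cells, and in experiment 2 it was 0.859, 2.26 and 3.04. In Trim71KO cells these ratios lay at percentiles 94.8 and 94.3 of all genes. Trim71-dependent enrichment was -0.16 (SE 0.22, edgeR adjusted p = 0.796) and 0.43 (SE 0.15, edgeR adjusted p = 0.146). With input and IP of the same number as a block, the second was 0.42 and was called higher (edgeR adjusted p = 0.0196). The 95% intervals of these differences, -0.59 to 0.26 and 0.14 to 0.72, exclude a decrease of the size measured for Plxnb2 in the same experiment. Set against untagged cells, enrichment of Plxna1 in Trim71KO was 2.63 (SE 0.22, edgeR adjusted p = 5.09e-10) and 1.82 (SE 0.15, edgeR adjusted p = 1.3e-10). Called higher in Trim71KO against untagged cells were 25.6% of all genes in experiment 1 and 23% in experiment 2. Plxna1 was the only member called higher there in experiment 1, and Plxna1 and Nrp2 were in experiment 2. Plxna3 was called lower in experiment 1, at -0.90 (SE 0.29, edgeR adjusted p = 0.0112), as were 29.3% of all genes. It lost that call without untagged input replicate 3, untagged IP replicate 2, Trim71KO input replicate 3 or Trim71KO IP replicate 2 (-0.74 to -0.56). Nrp2 in experiment 1 was at 0.48 (SE 0.22, edgeR adjusted p = 0.0619), not called, and was called under 4 of the 7 alternative settings (0.54 to 0.63). It was also called in 8 of 12 fits that left out 1 library (0.59 to 0.73).

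**Figure D2:**
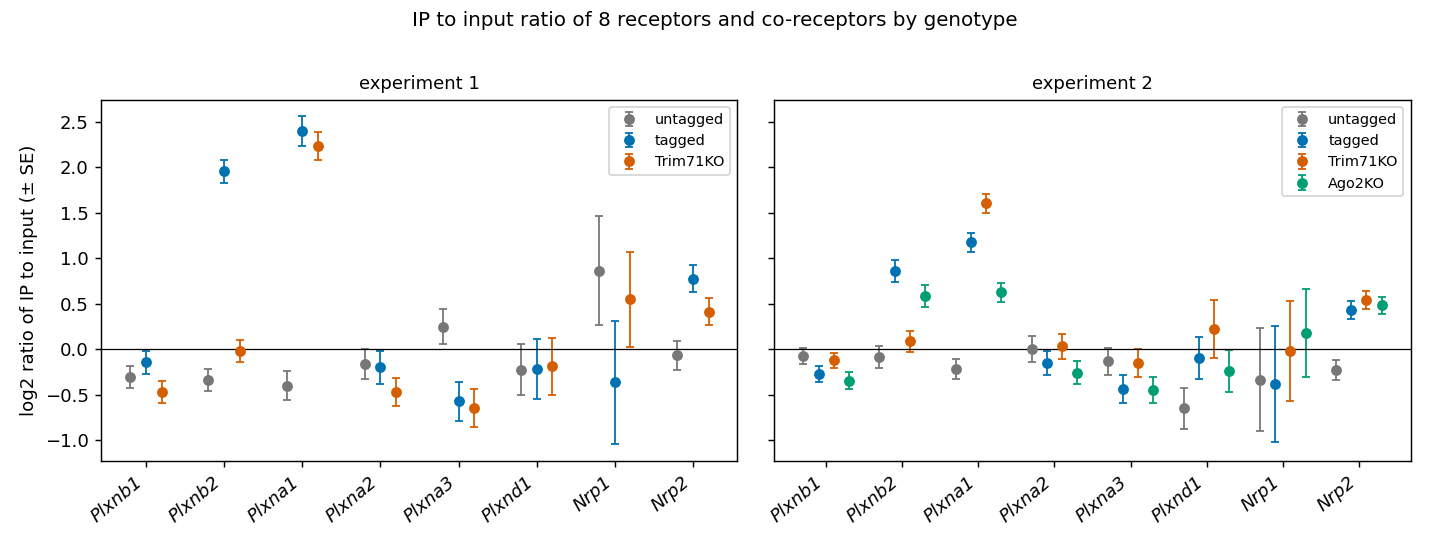
Log2 ratio of IP to input from the edgeR fit for the 8 receptors (horizontal axis) in each genotype (colour) of both experiments, with bars for the SE. In experiment 1 Plxnb2 is at 1.95 in tagged and -0.02 in Trim71KO cells, while Plxna1 is at 2.40 and 2.23.

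The 2 most abundant receptors can be set against each other inside each library, which removes the scaling between libraries. In input RNA the Plxnb2 to Plxna1 ratio of RPKM was 1.20 ± 0.0742 in untagged and 1.31 ± 0.214 in tagged cells of experiment 1 (SD, n = 3 for each). It was 3.4 ± 0.264 in Trim71KO cells, where the 3 libraries stood at 3.64, 3.12 and 3.45. In experiment 2 untagged, tagged and Ago2KO input stood at 1.41 ± 0.0334, 1.45 ± 0.0644 and 1.45 ± 0.0926, and Trim71KO input at 3.73 ± 0.104. Trim71KO input therefore stood apart from every other input group in both experiments. In the IP the ratio showed no such rise, and the untagged, tagged and Trim71KO groups of experiment 1 stood at 1.25 ± 0.100, 0.937 ± 0.0943 and 0.714 ± 0.0101. In experiment 2 the values were 1.55 ± 0.112, 1.16 ± 0.0274, 1.29 ± 0.190 and 1.41 ± 0.146 in untagged, tagged, Trim71KO and Ago2KO IP. A ratio inside a library shows unequal change of the 2 genes and not which of them moved.

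**Figure D3:**
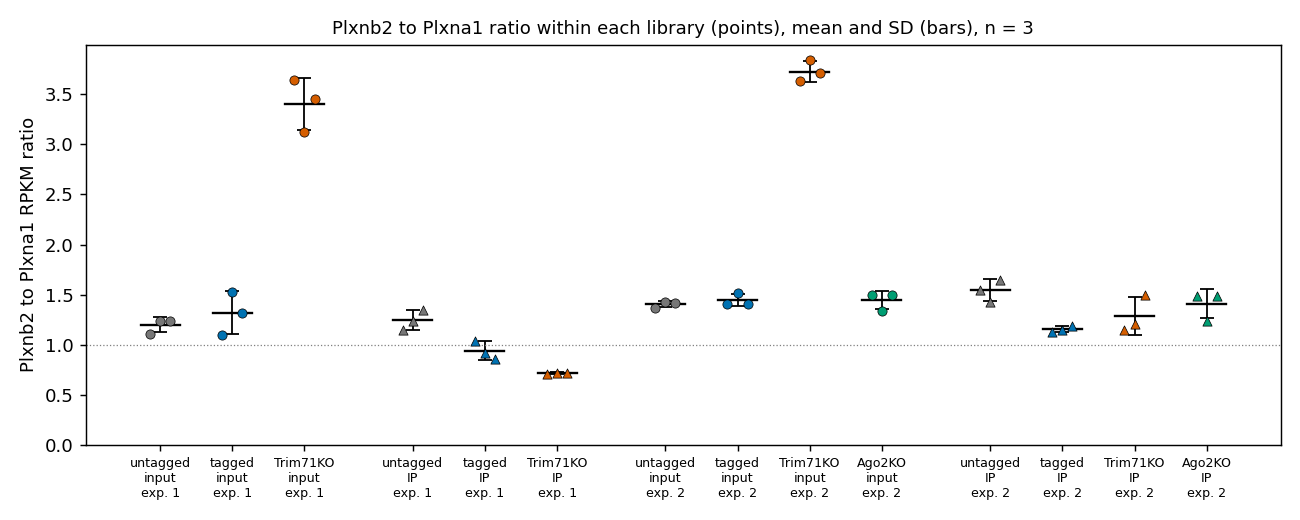
Plxnb2 to Plxna1 ratio of RPKM in each library, by genotype and fraction, with points for libraries and bars for the mean and SD of 3. Input of Trim71KO cells stands at 3.12 to 3.84, and every other library of either fraction lies at or below 1.65.

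In Ago2KO cells, which were part of experiment 2, enrichment of Plxna1 was called lower than in tagged cells and that of Plxnb2 was not. Plxna1 IP libraries held 87.14, 85.79 and 71.14 CPM in Ago2KO against 126.7, 109.6 and 113.8 CPM in tagged cells, with no overlap. Plxna1 input held 55.92, 55.73 and 46.82 CPM, at a log2 difference of 0.03 (SE 0.11) from tagged cells. Ago2-dependent enrichment of Plxna1 was -0.55 (SE 0.15, edgeR adjusted p = 0.0268), where 3.77% of all genes were called lower. That call was lost with library size alone as the scaling (-0.44, edgeR adjusted p = 0.101). It was also lost without tagged input replicate 2, tagged IP replicate 1, Ago2KO input replicate 1 or 2, or Ago2KO IP replicate 3, at -0.53 to -0.46. Plxnb2 IP held 110.5, 90.47 and 90.56 CPM and input 71.63, 63.69 and 59.87 CPM in Ago2KO. Its Ago2-dependent enrichment was -0.27 (SE 0.17, 95% interval -0.60 to 0.06, edgeR adjusted p = 0.544). That interval includes the -0.55 of Plxna1, and whether the change differed between these genes was not tested. Plxnb2 input in Ago2KO differed from tagged input by 0.03 (SE 0.12), not called. The median of Ago2-dependent enrichment over the 8 was -0.09, beside 0.00 over all genes.

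Set against untagged cells, 3 receptors were called higher in Ago2KO cells. These were Plxna1 at 0.84 (SE 0.15, edgeR adjusted p = 9.07e-05), Nrp2 at 0.71 (SE 0.15, edgeR adjusted p = 0.000566) and Plxnb2 at 0.67 (SE 0.17, edgeR adjusted p = 0.00504), where 15.9% of all genes were called higher. All 3 had been enriched in tagged cells.

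The 2 knockout labels were compared directly. Enrichment of Plxna1 was higher in Trim71KO than in Ago2KO cells by 0.98 (SE 0.15, edgeR adjusted p = 3.67e-05), where 8.94% of all genes were called higher. Enrichment of Plxnb2 stood at -0.50 (SE 0.17, edgeR adjusted p = 0.0535), not called. It was called with library size alone (-0.55, edgeR adjusted p = 0.0268) and with DESeq2 (-0.50, adjusted p = 0.0292). It was also called with the replicate number as a block within each fraction (-0.50, edgeR adjusted p = 0.0409). With input and IP of the same number as a block it was called too (-0.52, edgeR adjusted p = 0.00541). So it was without Ago2KO input replicate 1, Ago2KO IP replicate 2 or Trim71KO IP replicate 3 (-0.75 to -0.57). Input RNA of Plxnb2 was higher in Trim71KO than in Ago2KO by 1.18 (SE 0.12, edgeR adjusted p = 3.04e-08), the only member among the 13.2% of genes called higher. Plxnb1 stood at 0.21 (SE 0.09, edgeR adjusted p = 0.0742), not called, but was called with size factors by relative log expression (0.23, edgeR adjusted p = 0.0419), with DESeq2 (0.23, adjusted p = 0.0433) and without Ago2KO input replicate 1 (0.30, edgeR adjusted p = 0.018). Plxnd1, Plxna2, Nrp2 and Plxna3 were among the 15.1% called lower, at -1.68, -0.62, -0.49 and -0.39. Plxna3 lost its call in each of the 6 fits that left out 1 library (-0.44 to -0.30), and with DESeq2 (-0.37, adjusted p = 0.0534). That call was also lost with size factors by relative log expression (-0.37, edgeR adjusted p = 0.0585) and with no filter (-0.38, edgeR adjusted p = 0.0534).

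**Figure D4:**
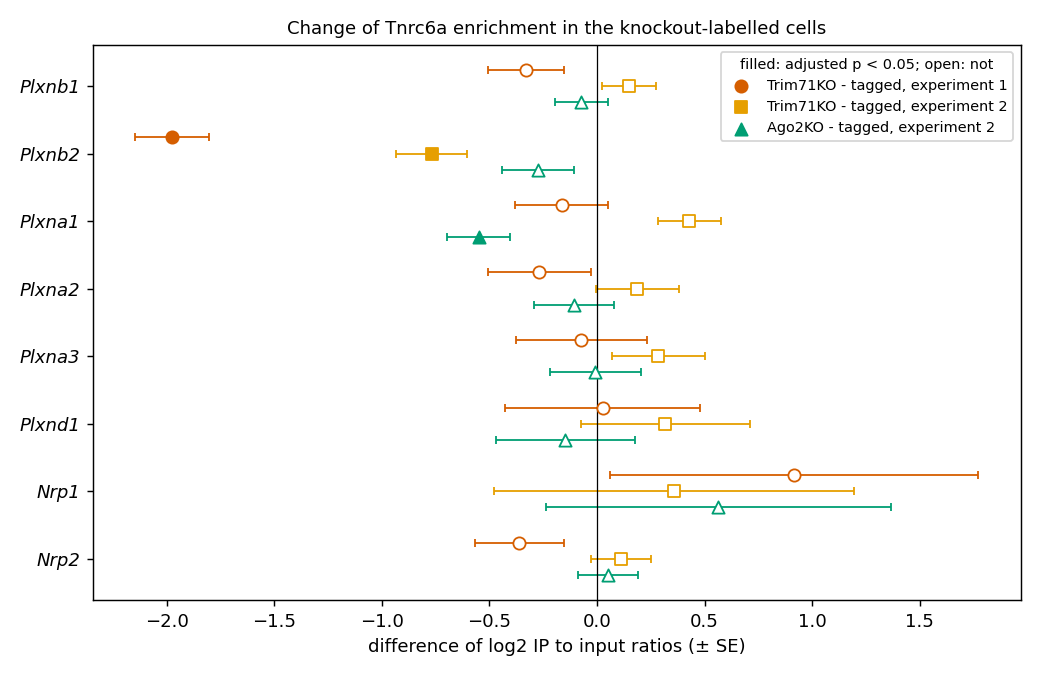
Trim71-dependent enrichment in both experiments and Ago2-dependent enrichment in experiment 2 for the 8 receptors, as differences of log2 IP-to-input ratios with bars for the SE, filled where called. Plxnb2 is the receptor furthest below 0 for Trim71-dependent enrichment, at -1.97 and -0.77, and Plxna1 for Ago2-dependent enrichment, at -0.55.

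IP libraries compared on their own gave the level of each receptor in the Tnrc6a fraction without dividing by input. In experiment 1 Plxna2 and Plxna1 were called higher in Trim71KO than in tagged IP, at 0.98 (SE 0.18, edgeR adjusted p = 0.000146) and 0.40 (SE 0.15, edgeR adjusted p = 0.0427), where 14.3% of all genes were called higher. The Plxna1 call was lost without any 1 of the tagged IP libraries or Trim71KO IP replicate 1 (0.27 to 0.43). In experiment 2 Nrp2, Plxnb2, Plxnb1 and Plxna1 were called higher, where 17.1% of all genes were, and Plxnd1 was called lower, where 16.2% were. Nrp2 was at 0.86 (SE 0.10, edgeR adjusted p = 1.88e-07), Plxnb1 at 0.38 (SE 0.09, edgeR adjusted p = 0.00159) and Plxna1 at 0.28 (SE 0.10, edgeR adjusted p = 0.0358). Plxna1 lost that call without tagged IP replicate 2 or 3 or Trim71KO IP replicate 2 or 3 (0.20 to 0.27). In Ago2KO IP, Nrp2 was called higher at 1.28 (SE 0.10, edgeR adjusted p = 7.55e-10) and Plxna1 lower at -0.52 (SE 0.10, edgeR adjusted p = 0.000633), where 7.04% of all genes were called higher and 9.32% lower. Plxna2 in Ago2KO IP was at 0.36 (SE 0.14, edgeR adjusted p = 0.0732), not called, and also at 0.36 but called (edgeR adjusted p = 0.0298) with the replicate number as a block.

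Nrp2, the neuropilin that also binds VEGF-C with its receptor, had the largest rise of the set in Ago2KO input. Input libraries of experiment 2 held 14.87, 17.67 and 13.07 CPM in untagged, 22.3, 21.35 and 20.32 CPM in tagged, 38.54, 33.49 and 35.22 CPM in Trim71KO and 52.52, 49.34 and 48.58 CPM in Ago2KO cells. The 4 groups did not overlap. Nrp2 input was higher than in tagged cells by 1.23 in Ago2KO (SE 0.10, edgeR adjusted p = 4.67e-09), where 4.39% of all genes were called higher, and by 0.75 in Trim71KO (SE 0.10, edgeR adjusted p = 2.31e-06). The direct difference, Trim71KO minus Ago2KO, was -0.49 (SE 0.09, edgeR adjusted p = 0.000299). In experiment 1 Nrp2 input stood at 9.415, 7.512 and 8.43 CPM in tagged and 8.588, 9.69 and 10.4 CPM in Trim71KO cells, which overlapped and were not called. The IP libraries of experiment 2 followed input, at 49.94, 52.28 and 53.82 CPM in Trim71KO and 82.07, 68.21 and 59.44 CPM in Ago2KO. The ratio of IP to input for Nrp2 there was 0.853 for untagged, 1.35 for tagged, 1.45 for Trim71KO and 1.40 for Ago2KO cells. Nrp2 showed no called change in either knockout, at 0.11 (SE 0.14) for Trim71-dependent and 0.05 (SE 0.14) for Ago2-dependent enrichment. Set against untagged cells, Nrp2 enrichment in Trim71KO was 0.77 (SE 0.15, edgeR adjusted p = 0.000127).

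Plxna2, a class A receptor, rose in input in experiment 1 in Trim71KO cells and in experiment 2 in Ago2KO cells. Experiment 1 input held 5.661, 3.441 and 5.316 CPM in tagged and 11.49, 10.84 and 11.91 CPM in Trim71KO cells, a difference of 1.25 (SE 0.16, edgeR adjusted p = 2.68e-06). Experiment 2 input held 10.85, 8.912 and 8.854 CPM in tagged, 9.781, 7.015 and 8.945 CPM in Trim71KO and 14.37, 13.22 and 12.02 CPM in Ago2KO cells. Trim71KO overlapped tagged cells in experiment 2, at -0.15 (SE 0.13), and Ago2KO did not overlap them, at 0.47 (SE 0.13, edgeR adjusted p = 0.025). The Ago2KO call was lost without tagged input replicate 2 or 3 or Ago2KO input replicate 1 or 2 (0.40 to 0.47) and with library size alone (0.43, edgeR adjusted p = 0.0596).

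Plxnd1 fell in Trim71KO input of experiment 2. Input held 4.44, 3.149 and 3.532 CPM in tagged, 1.229, 0.7384 and 1.474 CPM in Trim71KO and 3.565, 3.938 and 3.553 CPM in Ago2KO cells. The Trim71KO libraries lay below all others, at -1.68 from tagged cells (SE 0.27, edgeR adjusted p = 2.23e-05), and IP showed the same direction at -1.37 (SE 0.28, edgeR adjusted p = 0.00038). In experiment 1 Plxnd1 input held 0.6769, 2.122 and 2.148 CPM in tagged and 1.393, 1.762 and 2.346 CPM in Trim71KO cells, which overlapped. The difference there was 0.15 (SE 0.30), not called.

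**Figure D5:**
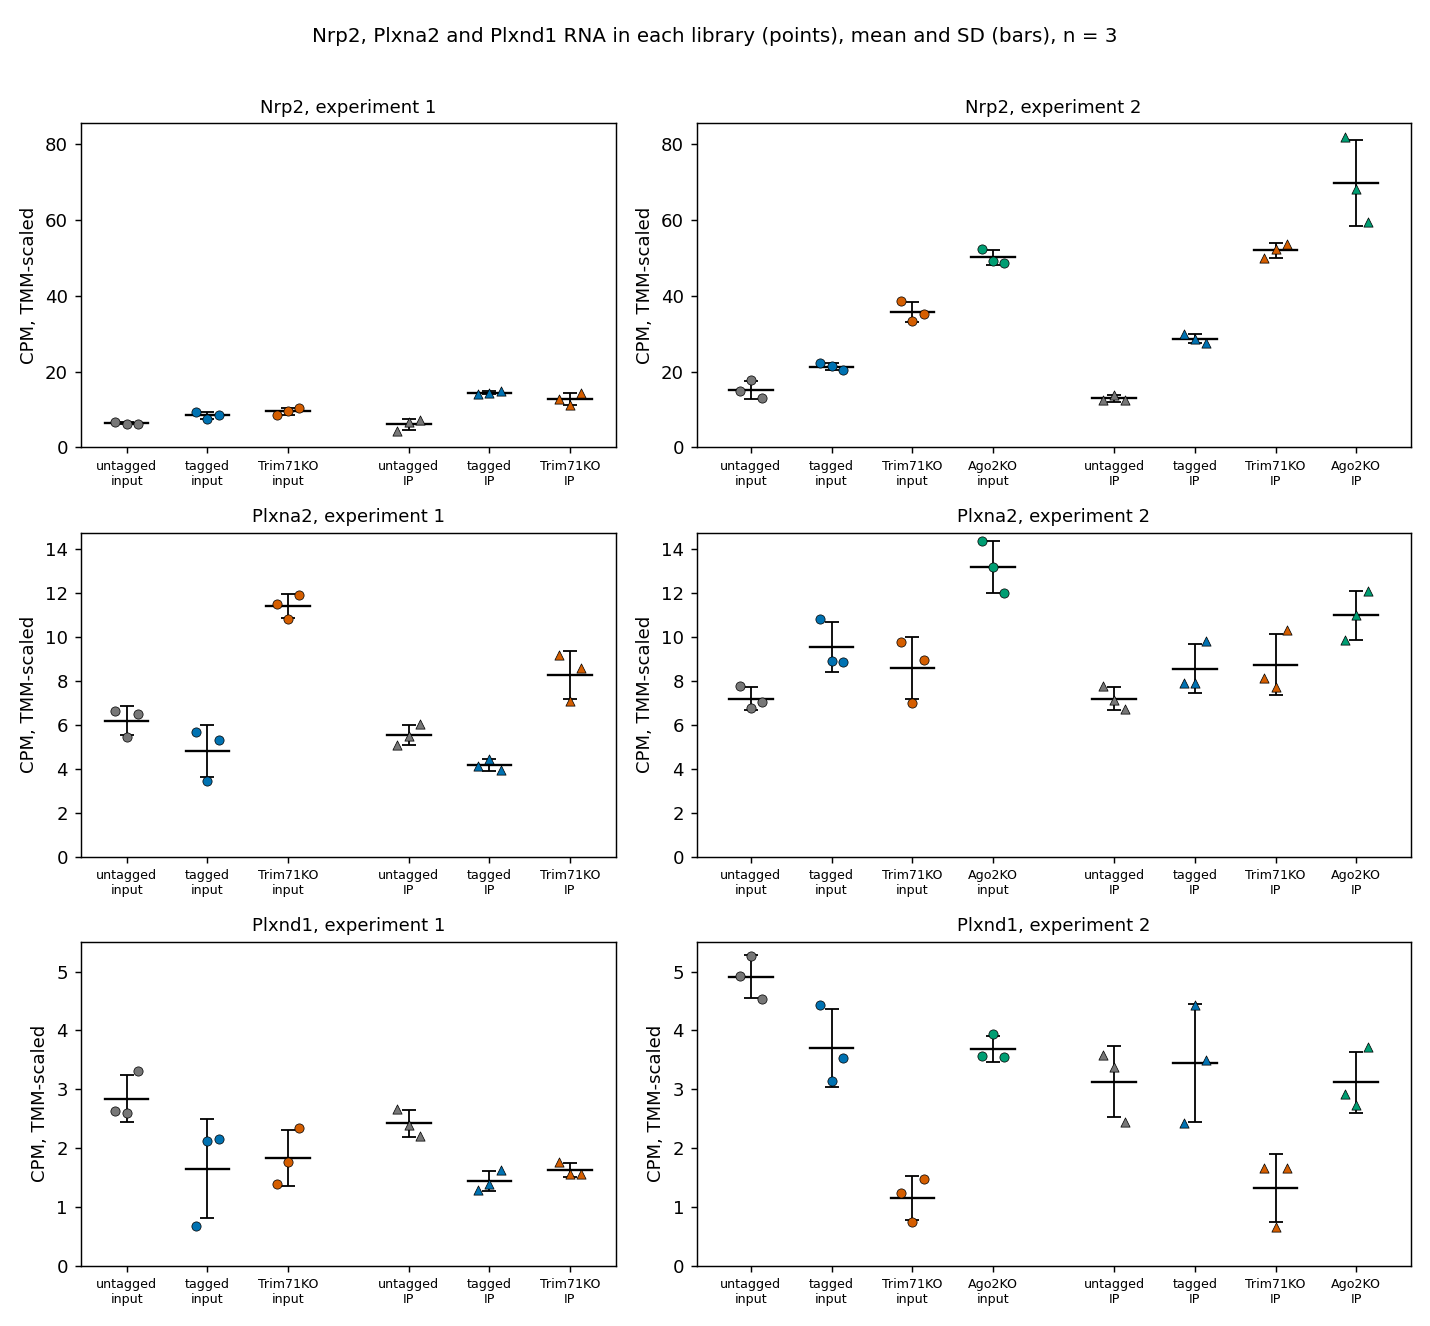
CPM of Nrp2, Plxna2 and Plxnd1 in every input and IP library by genotype and experiment, with points for libraries and bars for the mean and SD of 3. Nrp2 steps up from tagged to Trim71KO to Ago2KO input in experiment 2, and Plxnd1 is at 0.7384 to 1.474 CPM in Trim71KO input of experiment 2.

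Sums of markers of other cell types differed between some of these genotypes in input, as did those of embryonic stem cells. The 8 embryonic stem cell markers summed to 6530 to 7480 CPM in tagged and 7610 to 7790 CPM in Trim71KO libraries of experiment 1. In experiment 2 they summed to 7700 to 7900, 8550 to 8780 and 8330 to 8470 CPM in tagged, Trim71KO and Ago2KO libraries. A sum does not show which of its markers differed. The 6 primitive endoderm markers summed to 56.9 to 70.6 CPM for tagged and 12.1 to 14.1 CPM for Trim71KO libraries of experiment 1, and to 20.5 to 22.4, 7.57 to 9.65 and 9.73 to 11 CPM in tagged, Trim71KO and Ago2KO libraries of experiment 2. The 3 endothelial markers in the tables, of 4 listed, summed to 53.5 to 55.9 and 78.1 to 85.7 CPM in experiment 1, and to 53.1 to 57.6, 59.6 to 66.0 and 62.5 to 72.4 CPM in experiment 2. The 4 neural markers summed to 20.2 to 23.8 and 14 to 16.6 CPM, and to 27 to 29.3, 14.7 to 19.3 and 33.2 to 35.1 CPM. The 2 fibroblast markers in the tables, of 4 listed, summed to 22.6 to 24.5 and 58.0 to 61.8 CPM, and to 34.2 to 35.8, 49.5 to 51.9 and 29.9 to 35.1 CPM. The 2 trophoblast markers in the tables, of 4 listed, summed to 4.40 to 4.87 and 6.24 to 7.72 CPM, and to 9.52 to 11.2, 11.5 to 13.9 and 10.3 to 11.4 CPM. No marker in the tables was at 0 throughout a group. Their part in the differences in Nrp2, Plxna2 and Plxnd1 input was not tested.

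Nrp1, the co-receptor for class 3 semaphorins and VEGF-A, was too sparse to follow. Its input libraries held 1 to 13 counts in experiment 1 and 2 to 20 counts in experiment 2. No comparison called it as fitted with all groups and TMM scaling, and its SE for tag-specific enrichment was 0.90 and 0.82. Differences of the size called for Nrp2 were within that error. For IP RNA of Trim71KO against tagged cells in experiment 1 it stood at 1.44 (SE 0.63, edgeR adjusted p = 0.0773), and it was called higher with library size alone (1.60, edgeR adjusted p = 0.0468) and in a fit of only the groups compared (1.503, edgeR adjusted p = 0.0361).

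Several results differed in size between the experiments, which were tested in 1 joint fit. The difference of Trim71KO from tagged input was higher in experiment 1 than in experiment 2 for Plxnb2 by 0.77 (SE 0.18, edgeR adjusted p = 0.00195), for Plxna1 by 0.72 (SE 0.20, edgeR adjusted p = 0.00813), for Plxna2 by 1.40 (SE 0.20, edgeR adjusted p = 3.13e-06) and for Plxnd1 by 1.84 (SE 0.40, edgeR adjusted p = 0.000954). Nrp2 was the reverse, at -0.56 (SE 0.17, edgeR adjusted p = 0.0162), which was not called with library size alone (-0.45, edgeR adjusted p = 0.0547). For this difference 22.8% of all genes were called. Tag-specific enrichment was larger in experiment 1 for Plxna1 by 1.51 (SE 0.28, edgeR adjusted p = 0.000147) and for Plxnb2 by 1.46 (SE 0.26, edgeR adjusted p = 8.63e-05), where 28.5% of all genes were called. Trim71-dependent enrichment of Plxnb2 was more negative in experiment 1 by 1.21 (-1.21, SE 0.25, edgeR adjusted p = 0.0279), where 0.0967% of all genes were called. That last call was lost in 14 of 24 fits that left out 1 library (-1.21 to -1.001).

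The wider semaphorin system was described from lists of 65 further genes (ligands, other plexins, VEGF ligands and receptors, partners and intracellular effectors), of which 58 and 60 were tested. Tag-specific enrichment was called higher for 25 and lower for 10 in experiment 1, and for 14 and 3 in experiment 2. Of all genes, 28.1% were called higher and 28.8% lower in experiment 1, and 18.9% and 8.77% in experiment 2. Their median enrichment was 0.43 and 0.12, beside -0.10 and -0.03 over all genes. Sema7a, a membrane-anchored semaphorin that binds Plxnc1, was called higher at 2.73 (SE 0.31) and 1.45 (SE 0.26), and the exchange factor Arhgef12 at 2.47 (SE 0.20) and 1.40 (SE 0.14). Cdk5, a kinase of semaphorin signalling, was called lower at -0.97 (SE 0.23) and -0.37 (SE 0.13).

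Of these genes 3 were called with Plxnb2 in Trim71-dependent enrichment. In experiment 1, 3 of 58 were called lower and 0 higher, and in experiment 2, 0 of 60 were called by edgeR or by DESeq2, with 7 at an unadjusted p under 0.05. Called lower among all genes were 3.47% and 0.738%, so that 3 of 58 is a share near the background. The 3 were Plxnc1 at -1.91 (SE 0.42), the VEGF receptor Flt1 at -1.98 (SE 0.52) and the small GTPase Rap1b at -0.51 (SE 0.13), which lost its call under 4 of the 7 alternative settings. Plxnc1 and Flt1 lie below the level set for naming and were named after their values were seen. For Ago2-dependent enrichment 3 of 60 were called lower, namely Limk1, a kinase that acts on cofilin, at -0.66 (SE 0.11), the GTPase Rras2 at -0.50 (SE 0.14) and Rap1b at -0.48 (SE 0.12), and 0 higher. That share too is near the background, 3.77% of all genes called lower. With library size alone 1 pathway gene was called.

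In Trim71KO input the pathway genes were called higher for 21 and lower for 7 of 58 in experiment 1, and for 10 and 9 of 60 in experiment 2. Of all genes, 16.5% were called higher and 17.4% lower in experiment 1, and 13.5% and 13.7% in experiment 2. Of the semaphorin ligands, 9 of 15 were called higher and 1 lower in experiment 1, and 5 and 3 of 16 in experiment 2. Sema4b, a class 4 semaphorin, rose by 0.94 (SE 0.16) and 0.91 (SE 0.14), and Dpysl3, a cytoplasmic mediator of semaphorin signalling, by 1.12 (SE 0.13) and 1.12 (SE 0.08). Among genes abundant enough to be named, the largest falls in experiment 1 were Rras2 at -0.75, Rap1b at -0.59 and Rap1a at -0.58. In experiment 2 they were Sema7a and Sema3e, both at -0.80, and L1cam at -0.53. Tagged input of experiment 2 was called higher than untagged for Dpysl3 too, at 0.45 (SE 0.09). Dpysl3 rose in Ago2KO input as well, by 1.12 (SE 0.08), where 5 of 60 pathway genes were called higher and 3 lower, beside 4.39% and 2.57% of all genes.

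Across libraries, Plxnb2 had a pattern nearer to those of Nrp2 and Plxna1 than to that of Plxnb1, the other class B plexin of the set. Pearson's r of log2 CPM between Plxnb2 and Nrp2 was 0.794 over the 18 libraries of experiment 1 and 0.526 over the 24 of experiment 2, and with Plxna1 it was 0.785 and 0.614. With Plxnb1 it was 0.092 and 0.255, with Plxna2 0.465 and -0.0269, and with Plxna3 -0.537 and -0.554. Plxnd1 and Nrp1 were not correlated with it, as genes under a mean log2 CPM of 2 were left out. Among 11348 genes compared, those most like Plxnb2 in both experiments were Tead4 (0.925 and 0.947), Ptgfrn (0.927 and 0.924) and Nfrkb (0.915 and 0.949). These libraries share genotype and fraction, so the values are a description of pattern only.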

How the data were processed

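The authors deposited, per experiment, a table of raw counts per gene with RPKM values beside them, per the file headers. The submitters' processing notes name bcl2fastq 2.20, STAR 2.7.3a and GRCm38/mm10. The counting tool is not given in the sources used here (the gene length column refers to QuasR), and neither is its use of strand. Of the 8 receptors, 7 overlap another RefSeq gene (a Gm or Rik model or a microRNA), so reads of those neighbours could be included. RPKM printed here was recomputed from the deposited counts and gene lengths with TMM-adjusted library sizes, and the authors' RPKM served only to check that scaling.

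The deposited counts entered edgeR 4.0.16 under R 4.3.3 (TMM scaling, filterByExpr, quasi-likelihood F test, a mean per group, all groups of an experiment in 1 fit, Benjamini-Hochberg over all genes tested). CPM uses TMM-adjusted library sizes, and the SE is the absolute log2 change over the root of F. Intervals are normal 95% intervals from that SE. Overlap of replicates was checked: the chi-square per gene between replicates was 2.87 to 64.1, so each library counted once. Trim71-dependent enrichment was also run on simulated counts, with 200 of the more abundant genes changed 2-fold in Trim71KO IP. Of these, 186 were recovered among 18502 genes in experiment 1 and 189 among 19624 in experiment 2, with 6.06% and 2.58% of calls false. Recovery of smaller changes, or of sparse genes such as Nrp1 and Plxnd1, was not tested. Simulated libraries were drawn independently, so deviations shared by libraries of the same number were not part of the simulation. The alternatives were size factors by relative log expression (RLE), library size alone, no filter, the replicate number as a block within input and within IP, DESeq2 1.42.0, only the groups compared, and leaving out each library. A block that joins input and IP of the same number was added after seeing the data.

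Groups counted as paired by the data where all correlations of same-numbered libraries were above 0.1. In experiment 2 tagged and Trim71KO cells met this, at 0.301, 0.406 and 0.470 in input and 0.379, 0.316 and 0.408 in IP. Tagged and Ago2KO IP met it too (0.679, 0.102 and 0.532), but not every tagged IP library there correlated best with its own number. Tagged input and tagged IP of experiment 2 also deviated together (0.131, 0.222 and 0.246), but input and IP of Trim71KO (0.0824, 0.163 and 0.361) and Ago2KO cells (0.146, 0.0512 and 0.278) were not all above 0.1. In experiment 1 no pair of groups met that limit.

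All 8 receptors are named in the text, with Trim71 and Ago2. Of the pathway lists, up to 3 genes each way per comparison could be named, the largest changes among called genes with a mean log2 CPM of at least 2. The 3 genes most like Plxnb2 are those with the highest value of the lower of its correlations in the 2 experiments. Members and lists were chosen with earlier results of these data known.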

Additional observations from a re-analysis of the deposited data

Results flagged for a closer look

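Results of 5 receptors were singled out because the same contrast differed between the 2 experiments by a test of the difference itself, in edgeR with all libraries in 1 fit. For input RNA of Trim71KO against tagged cells, experiment 1 minus experiment 2 was 0.767 for Plxnb2, 0.717 for Plxna1, 1.40 for Plxna2, 1.84 for Plxnd1 and -0.557 for Nrp2 (log2). Plxnb2 differed by -1.21 in Trim71-dependent enrichment. For tag-specific enrichment it was 1.46 for Plxnb2 and 1.51 for Plxna1. Experiment and any difference in handling between the experiments cannot be told apart.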

How the results depend on the processing

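Results were recomputed under 7 alternatives and leaving out each library, and no receptor's direction turned where its result was called. Of 996 values of single receptors under the alternatives, 939 kept direction and side of the threshold, 9 lost a call, 27 gained one and 21 uncalled values changed sign; leaving out 1 library gave 1601, 58, 27 and 90 of 1776. Counts of receptors called that moved by over 1.5 times were these. With library size alone, tagged against untagged input of experiment 1 went from 0 to 3, enrichment in Trim71KO against untagged cells of experiment 1 from 2 to 4, Ago2-dependent enrichment from 1 to 0, enrichment in Trim71KO against Ago2KO from 1 to 2 and input of Ago2KO against tagged from 2 to 1. With only the groups compared, the first 2 went to 1 and 4, and with DESeq2 the first went to 1 and enrichment in Trim71KO against Ago2KO to 2. Smaller moves, by 1 receptor, were these. With library size alone, tag-specific enrichment of experiment 2 went from 3 to 4, Trim71KO IP of experiment 1 and Ago2KO IP each from 2 to 3, Trim71KO input of experiment 2 from 4 to 3, and the differences between experiments in input from 5 to 4 and in tag-specific enrichment from 2 to 3. With RLE or DESeq2, enrichment in Trim71KO against untagged cells of experiment 1 went from 2 to 3. With only the groups compared, 3 receptors in place of 2 were called in Trim71KO IP of experiment 1, and 4 in place of 5 in that of experiment 2. With no filter, Trim71KO IP of experiment 2 and input of Trim71KO against Ago2KO each went from 5 to 4.

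With the replicate number as a block within each fraction, tagged against untagged input of experiment 1 went to 3 and enrichment in Trim71KO against Ago2KO to 2, where Plxnb2 was called (-0.50, edgeR adjusted p = 0.0409). Same-numbered tagged and untagged input of experiment 1 did not pair (correlations 0.00917, 0.148 and -0.131). For Trim71KO and Ago2KO these correlations were 0.369, 0.0381 and 0.319 in input and 0.312, 0.09 and 0.232 in IP. They were not all above 0.1, but each Trim71KO library correlated best with its own number in both fractions. Where the numbers pair libraries, in experiment 2, the block added a call for Plxna2 in Ago2KO IP and changed no call in Trim71KO against tagged input or IP. Trim71-dependent enrichment of Plxnb2 there was -0.77 with the block (edgeR adjusted p = 0.0109). A block that joins input and IP of the same number, added after seeing the data, moved Trim71-dependent enrichment of experiment 2 from 1 to 2 receptors (Plxna1 at 0.42) and enrichment in Trim71KO against Ago2KO from 1 to 2 (Plxnb2 at -0.52), and left the other 7 enrichment counts as they were. It was not run for the differences between experiments.

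Leaving out 1 library at a time gave these ranges of receptors called. In experiment 1 they were 3 to 4 for tag-specific enrichment, 1 to 1 for Trim71-dependent enrichment, 3 to 4 for Trim71KO input, 0 to 3 for tagged against untagged input, 1 to 2 for Trim71KO IP and 2 to 3 for Trim71KO against untagged enrichment. In experiment 2 they were 3 to 4, 0 to 1, 3 to 4, 0 to 1, 3 to 5 and 2 to 3 for the same comparisons. They were 0 to 1 for Ago2-dependent enrichment, 1 to 2 for enrichment in Trim71KO against Ago2KO, 1 to 2 for Ago2KO input, 4 to 5 for Trim71KO against Ago2KO input, 2 to 3 for Ago2KO IP and 3 to 4 for enrichment in Ago2KO against untagged cells. Between the experiments they were 5 to 5 for input, 0 to 1 for Trim71-dependent and 2 to 3 for tag-specific enrichment. Beyond those named, the cause of these moves was not tested. With 3 libraries a group, sparse genes such as Nrp1 and Plxnd1 have wide errors.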
